A study of Mus musculus with 7 samples.

Results

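The transcription factors Otx2, Gbx2, En1, En2, Pax2, Pax5 and Pax8 divide the early midbrain from the hindbrain, and their levels were read in single cells of the Wnt1-Cre;ROSA-EGFP lineage of mouse embryos. The 7 genes were listed by symbol for this known role, with earlier results of these data known, out of 32285 genes in the count matrices. They were followed through 7 single-cell libraries in neural cells, which held at least 1 molecule count (unique molecular identifier, UMI) of Sox2, and in neural crest cells, which held at least 1 UMI of Sox10 or Twist1. Sox2 is a transcription factor of neural progenitors, Sox10 marks migrating crest and glia, and Twist1 marks mesenchymal crest.

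All embryos came from mice on a mixed Swiss-Webster background that carried Wnt1-Cre and the ROSA-EGFP reporter, so that the dorsal neural tube and its crest descendants were EGFP-positive and were collected by cell sorting. Wnt1-Cre is active in the dorsal neural tube and the midbrain, so the libraries hold its lineage and not the whole neural tube. Control libraries (Wnt1-Cre/+;ROSA-EGFPf/+) came from embryonic day (E) 8.5, where the front of the embryo with the head was taken (1 library), from E9.5, where the pharyngeal apparatus with heart was taken without the head (1 library), and from E10.5, where arches 2 to 6 with heart were taken (2 libraries). The later dissections kept the neural tube beside the arches. Kit version was 2 at E8.5, and 3.1 in the other libraries except null E9.5 and null E10.5 replicate 1, which used version 3. Libraries titled Tbx1null came from E9.5 (1 library) and E10.5 (2 libraries, tissue below the first arch with heart). Their GEO genotype field reads Wnt1-Cre/+;Tbx1+/-;ROSA-EGFPf/+ while the study describes both Tbx1 alleles as inactivated, so they are called null here by their titles. The 3' tags counted for Tbx1, at 82, 337 and 500 UMIs in the null libraries, may lie outside the inactivated part and check nothing. Each library pooled embryos of 1 genotype, and the library is the replicate, so that p-values measure the spread between pools. At E10.5 the study lists fewer embryos in each null pool than in each control pool. It also lists fewer somites for null E10.5 replicate 1 than for the other E10.5 pools.

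After filtering, 5587 to 9555 cells were kept per library with a median of 14708 to 22822 UMIs each. Neural cells numbered 2697 at E8.5, 3039 (control) and 2989 (null) at E9.5, and 3007 and 1663 (control) and 4846 and 4368 (null) at E10.5. They made up 18.3% of the kept cells in control E10.5 replicate 2 and 67.9% in null E10.5 replicate 2, and the share was higher in both null than in both control libraries of E10.5. Any pair of libraries shared 0 to 44 cell barcodes, at most 0.41% of the smaller library. Of the neural cells, 14.2% to 46.3% per library also held a UMI of Sox10 or Twist1, so values are also given for neural cells without these and for crest cells without Sox2. In the neural cells the summed level of the neural progenitor list (Sox1, Sox2, Sox3, Pax6, Nes, Hes5, Fabp7) was 342 CPM (UMIs scaled to the same total for every pool of cells) at E8.5 and 937 to 2085 CPM later, against 57.4 to 148 CPM in crest cells without Sox2. Sox2 is in this list and set the gate, so part of this difference was fixed by the choice of cells. Blood markers summed to 0.05 to 1.11 CPM in 6 of the neural pools and to 10.0 CPM in null E10.5 replicate 2, while endothelial markers stayed at 0.89 to 2.74 CPM.

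Otx2 is a homeobox factor of the forebrain and midbrain, and Gbx2 is a homeobox factor of the anterior hindbrain. Where their domains meet, the isthmic organiser forms and releases Fgf8 and Wnt1, which pattern the tissue on both sides. The paired-box factors Pax2, Pax5 and Pax8 and the engrailed homeobox factors En1 and En2 are expressed across this border, and several of them are used again later in hindbrain and spinal interneurons, while Otx2 is also known in the choroid plexus of the hindbrain.

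In the mm10 build (GENCODE annotation of GRCm38) the genes lie apart, on 6 chromosomes. Otx2 is at chr14:48657677-48673819 on the minus strand, where the non-coding Otx2os1 overlaps it on the plus strand, and Gbx2 is at chr1:89927956-89931179 on the minus strand, where the non-coding D130058E05Rik overlaps its 5' end from the other strand. En1 is at chr1:120602418-120607992 (plus), En2 at chr5:28165694-28172166 (plus), Pax2 at chr19:44756045-44837871 (plus), Pax5 at chr4:44524757-44710487 (minus) and Pax8 at chr2:24420560-24475599 (minus). RefSeq promoter windows (GRCm38.p6, 250 bases before to 50 after a start) were matched for 6 of the 7 genes. Those of Otx2, En1 and Pax8 are shown because Otx2 and Pax8 had opposite relations to Gbx2 in the cells below, while En1 and Pax8 were detected together. Only the bases upstream of the start and outside annotated exons are printed, 5' to 3' on the gene's strand, with motif matches in capitals. The Otx2 stretch, chr14:48667645-48667894, precedes an internal start, 1 of 4 Otx2 starts in the table, and lies outside the exons, the En1 stretch is chr1:120602237-120602417, and the Pax8 stretch is chr2:24475600-24475849.
Otx2 promoter: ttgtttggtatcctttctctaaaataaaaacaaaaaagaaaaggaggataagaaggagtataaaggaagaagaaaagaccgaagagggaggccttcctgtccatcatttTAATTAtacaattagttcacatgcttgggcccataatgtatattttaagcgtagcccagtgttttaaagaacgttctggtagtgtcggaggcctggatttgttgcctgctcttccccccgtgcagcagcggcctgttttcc
En1 promoter: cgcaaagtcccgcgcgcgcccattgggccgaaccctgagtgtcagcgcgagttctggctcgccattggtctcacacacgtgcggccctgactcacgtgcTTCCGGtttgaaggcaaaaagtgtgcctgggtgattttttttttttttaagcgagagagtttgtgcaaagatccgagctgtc
Pax8 promoter: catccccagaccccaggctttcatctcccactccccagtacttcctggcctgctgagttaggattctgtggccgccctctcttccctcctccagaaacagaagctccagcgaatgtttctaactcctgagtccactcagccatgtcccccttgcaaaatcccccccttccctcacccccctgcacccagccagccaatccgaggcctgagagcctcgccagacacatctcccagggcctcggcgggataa
Searched on both strands for TAATTA, the core bound by many homeobox factors, the Otx2 stretch held 1 match and the others none. Over their 300 bases, another of the 4 Otx2 windows (chr14:48665060-48665359, exonic and not printed) held 3 matches of TAATTA and 1 of the Otx core, and the remaining 2 windows held none of the motifs. TAATCC or its reverse complement GGATTA, the Otx core, was in none of the 3 stretches. CCGGAA or its reverse complement TTCCGG, an ETS core of the kind bound by Etv factors downstream of FGF, had 1 match in the En1 stretch. Of 32851 RefSeq windows of 300 bases, 5.29% held TAATTA, 7.06% the Otx core and 14.9% the ETS core, so these matches are descriptions of the letters only. TAATTA and GGATTA end in the same bases, ATTA.

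At E8.5 all 7 genes were detected in neural cells, with Otx2 and En1 in the most cells. Levels are 3' tag counts and compare cells for 1 gene, not genes with each other. In 2697 neural cells Otx2 was at 99.2 CPM (exact Poisson 95% interval 96.7 to 102, counting error only) and En1 was at 124 CPM (121 to 126). The Pax genes were at 8.31 CPM (7.60 to 9.08) for Pax2, 21.9 CPM (20.8 to 23.1) for Pax5 and 15.2 CPM (14.2 to 16.2) for Pax8. Gbx2 was at 8.65 CPM (7.92 to 9.43) and En2 at 6.59 CPM (5.96 to 7.28). With each cell thinned to 5000 UMIs, which left out 10 shallower neural cells, Otx2 was in 31.5% of neural cells (exact Clopper-Pearson 95% interval 29.7 to 33.3), En1 in 33.3% (31.6 to 35.2) and Pax5 in 10.2% (9.11 to 11.4). Pax8 was in 7.63%, Gbx2 in 4.73%, Pax2 in 4.35% and En2 in 3.54%. Without thinning, at a median of 21082 UMIs, the shares were 49.4% for Otx2, 51.2% for En1, 29.3% for Pax5, 20.5% for Pax8, 14.1% for Pax2, 12.3% for Gbx2 and 11.7% for En2.

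In crest cells without Sox2 each of the 7 genes was at a lower level than in neural cells without crest genes. The level that free RNA gives was not measured, so these values are not read as expression in crest cells. Over the 3245 crest cells, 820 of which also held Sox2, the levels ran from 0.87 CPM (En2) to 12.98 CPM (En1), with Otx2 at 7.79 CPM and Gbx2 at 2.21 CPM. In the 2425 crest cells without Sox2, at a median of 24963 UMIs, Otx2 was at 2.20 CPM, En1 at 5.19 CPM, Gbx2 at 1.86 CPM, Pax5 at 0.87 CPM, Pax8 at 0.64 CPM, En2 at 0.58 CPM and Pax2 at 0.51 CPM. Set against neural cells without crest genes, where Otx2 was at 142 CPM and En1 at 173 CPM, the crest level was 1.55% for Otx2, 2.79% for Pax5, 2.99% for En1, 3.004% for Pax8, 4.42% for Pax2, 6.18% for En2, and 15.9% for Gbx2. This comparison rests on 1 library and carries no test. The 1573 crest cells with both Sox10 and Twist1 had the lowest levels of Otx2 (0.97 CPM) and En1 (3.40 CPM), below the 5.16 CPM and 9.93 CPM of cells with Sox10 alone.

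**Figure D1:**
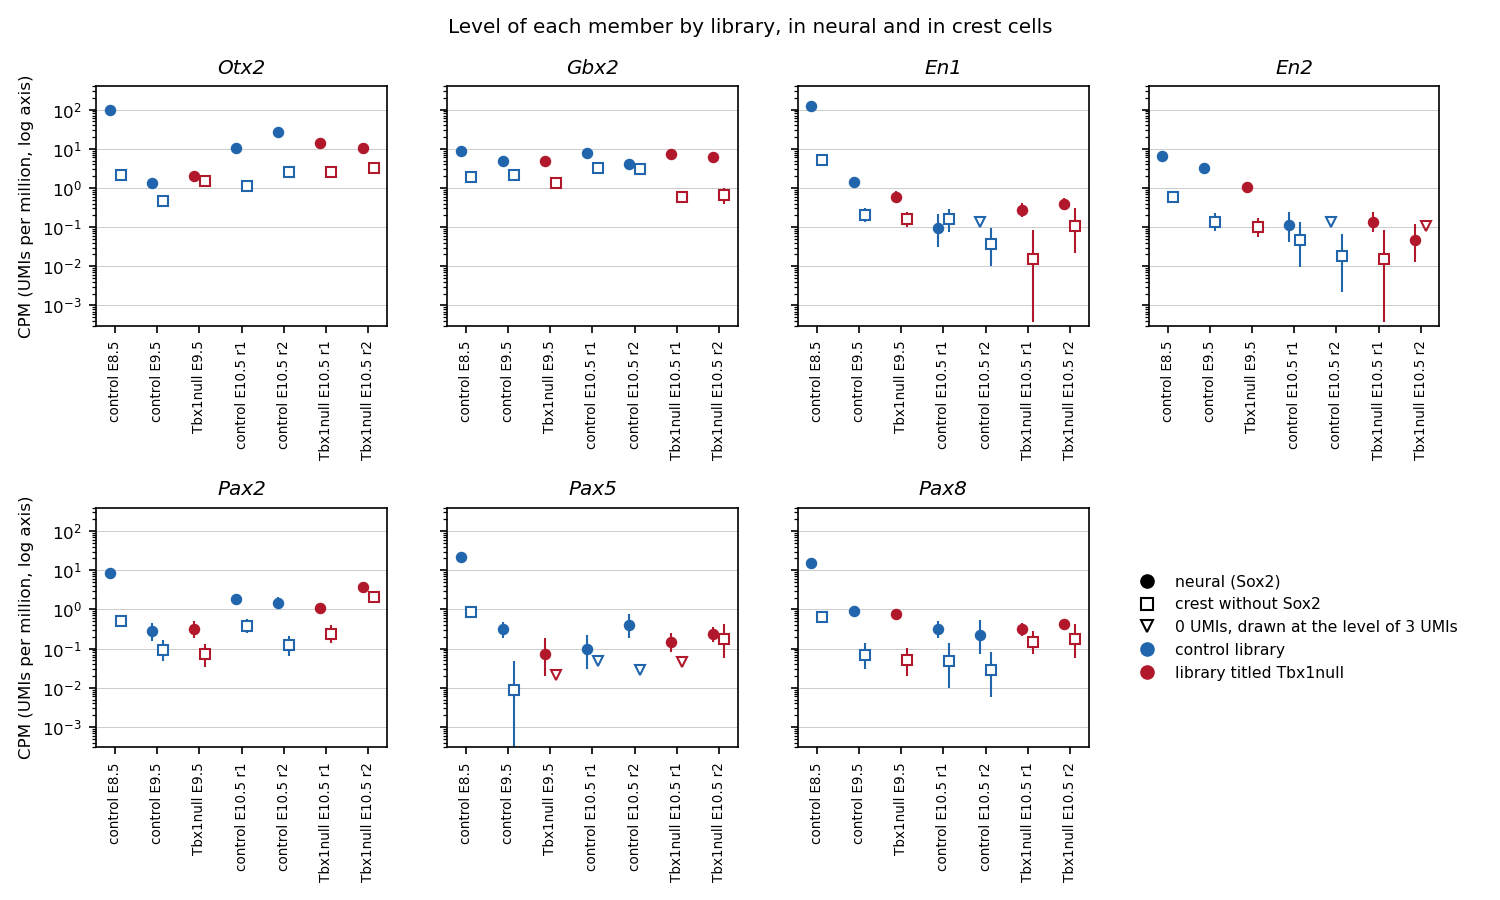
Level of each of the 7 genes in CPM (log axis) in every library, in neural cells (filled circles) and in crest cells without Sox2 (open squares), with exact Poisson 95% intervals for counting error and triangles for 0 UMIs drawn at the level of 3 UMIs. Otx2, En1, Pax2, Pax5 and Pax8 are highest at E8.5 (99.2, 124, 8.31, 21.9 and 15.2 CPM in neural cells), while Gbx2 stays between 4.19 and 8.65 CPM in neural cells of all 7 libraries.

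Otx2 and Gbx2 were found in the same E8.5 neural cell less often than independent detection gives, while En1, En2, Pax2, Pax5 and Pax8 were found together more often. At 5000 UMIs per cell, 846 of 2687 neural cells held Otx2 and 127 held Gbx2. Both were found in 12 cells where independent detection gives 40.0, a ratio of observed to expected of 0.30 (0.16 to 0.52 from the exact Clopper-Pearson interval of the share of cells with both, counting error only). The ratio was 0.24 in 1867 neural cells without crest genes, and 0.29 with the called doublets put back. At full depth it was 0.42 (0.32 to 0.52, 68 cells), and 20.5% of the cells with Gbx2 also held Otx2, beside 49.4% of all neural cells. All 10 pairs among En1, En2, Pax2, Pax5 and Pax8 had ratios above 1, from 1.87 (En1 and Pax2, 73 cells) to 2.90 (En2 and Pax2, 12 cells), each with its interval above 1. In neural cells without crest genes the 10 ratios ran from 1.45 to 2.40, and the intervals of En2 with Pax8 (1.498, 0.80 to 2.56) and Pax2 with Pax5 (1.4996, 0.93 to 2.29) spanned 1. At 3000 UMIs per cell the ratios stayed above 1, but En2 with Pax2 was at 1.76 (0.21 to 6.35, 2 cells), and the intervals of Pax2 with Pax5, Pax2 with Pax8 and Pax5 with Pax8 spanned 1 as well. En1 was found in 66.3% of the cells with En2, 62.4% of those with Pax2, 65.8% of those with Pax5 and 70.7% of those with Pax8, beside 33.3% of all neural cells.

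Between the border genes and the domain genes the pattern was uneven. Gbx2 and Pax8 were found together in 24 cells against 9.69 expected, a ratio of 2.48 (1.59 to 3.68), while Otx2 and Pax8 had a ratio of 0.76 (0.56 to 1.00). Without crest genes these were 1.77 and 0.57. At 3000 UMIs per cell Gbx2 with Pax8 was at 2.02 (0.74 to 4.40, 6 cells), with an interval that spans 1. Otx2 and En1 had a ratio of 1.28 (1.16 to 1.41) over all neural cells but 0.97 (0.88 to 1.07) in those without crest genes, so that the excess of this pair was not there once cells with Sox10 or Twist1 were left out. The interval of Otx2 with Pax8 lay wholly below 1 in those cells (0.41 to 0.76). At full depth, over all neural cells, this pair was at 0.91 (0.81 to 1.03), with an interval that spans 1. Gbx2 with Pax2 was at 0.72 (0.20 to 1.85, 4 cells) at 5000 UMIs per cell and at 1.56 (1.23 to 1.96) at full depth, so no direction is read for this pair.

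**Figure D2:**
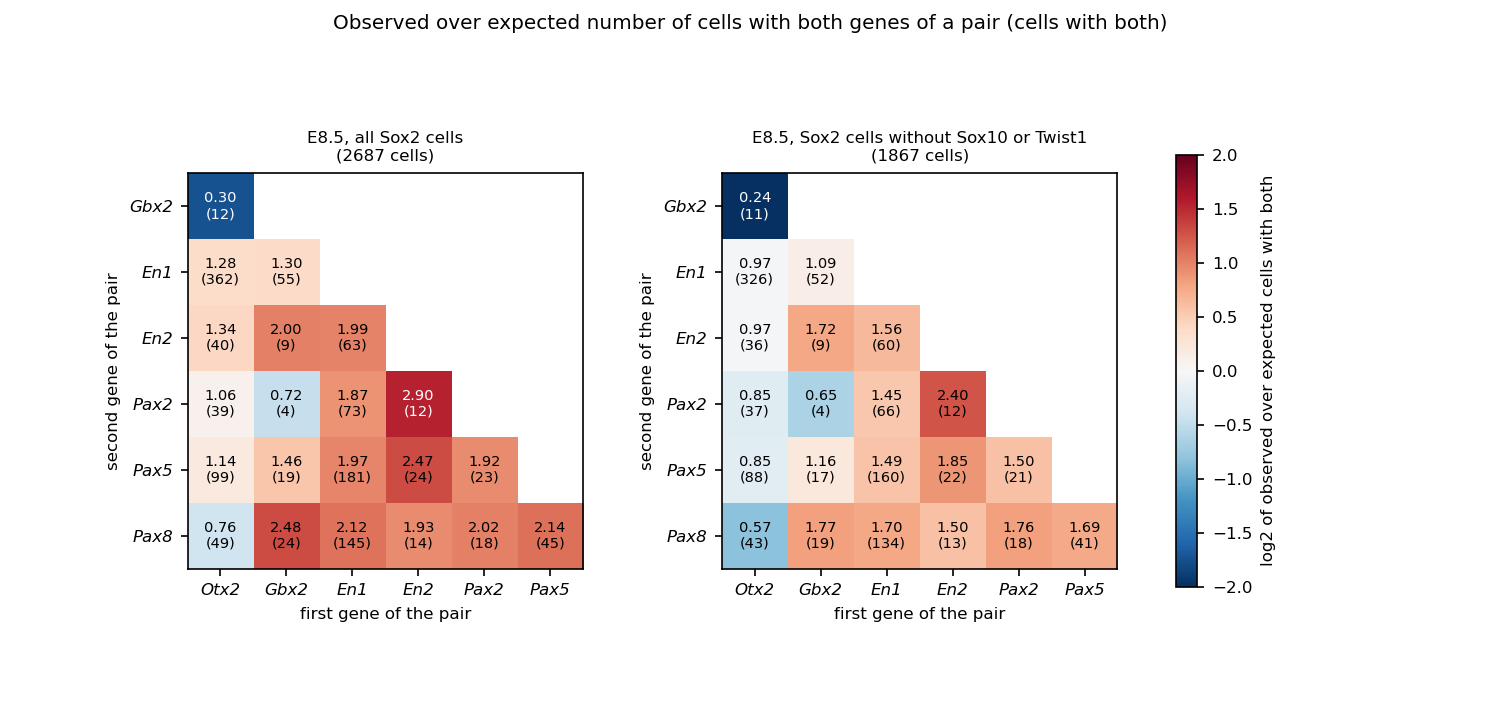
Observed over expected number of E8.5 cells holding both genes of a pair at 5000 UMIs per cell, with the number of such cells in parentheses, for all neural cells (left) and for those without Sox10 or Twist1 (right). The colour is the log2 of the ratio. Otx2 with Gbx2 is the lowest pair in both panels (0.30 and 0.24), and En2 with Pax2 is the highest (2.90 and 2.40).

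Sorting the E8.5 neural cells by the presence of Otx2 and Gbx2 at full depth gave 2 groups with 1 of the genes, a small group with both and a group with neither. Cells with Otx2 and no Gbx2 numbered 1263 (46.8%), those with Gbx2 and no Otx2 numbered 264 (9.79%), 68 held both (2.52%) and 1102 held neither (40.9%). Median depths were 20481, 19302, 19416 and 22660 UMIs in that order. A cell with neither gene may be one in which a low gene was missed.

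Among the other members, En1 was at 302 CPM in cells with both genes, 162 CPM in cells with Otx2 alone, 174 CPM in cells with Gbx2 alone and 60.9 CPM in cells with neither. Pax5 took the same order, with 46.1, 24.7, 39.8 and 13.8 CPM, highest in the cells with both or with Gbx2. Pax8 was highest in cells with Gbx2 alone, at 43.7 CPM, beside 25.1 CPM with both, 12.5 CPM with Otx2 alone and 11.6 CPM with neither. En2 and Pax2 were each higher where Gbx2 was found (13.8 and 16.2 CPM alone, 13.5 and 15.6 CPM with both) than with Otx2 alone (7.20 and 8.74 CPM). The Poisson intervals of En2 and Pax2 in the 68 cells with both genes span those of the cells with Gbx2 alone.

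Of the isthmic signals, Fgf8 and Fgf17, secreted FGFs, were highest in cells with Gbx2 alone. Fgf8 was at 91.8 CPM there, 48.8 CPM with both genes, 13.2 CPM with Otx2 alone and 44.7 CPM with neither, and Fgf17 followed at 44.3, 16.9, 2.57 and 13.9 CPM. Wnt1, the secreted WNT of the midbrain side, ran the other way, at 20.2 CPM with Gbx2 alone, 91.4 CPM with both, 68.5 CPM with Otx2 alone and 25.4 CPM with neither. Sp5, a WNT target, was at 67.0 CPM with Otx2 alone and 6.97 CPM with Gbx2 alone. Sp8, a zinc-finger factor of the same list, was at 38.5 CPM with Otx2 alone, 49.4 CPM with both, 46.7 CPM with Gbx2 alone and 18.7 CPM with neither. The FGF response genes Il17rd (40.0 against 18.0 CPM), Spry2 (47.1 against 14.2 CPM) and Dusp6 (49.4 against 18.2 CPM) were each higher with Gbx2 alone than with Otx2 alone, and Dusp6 reached 92.8 CPM in cells with both. Fgf15, of the same list, was at 46.9 CPM with Gbx2 alone and 45.7 CPM with Otx2 alone, with overlapping intervals.

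Of the 4 midbrain factors with the highest levels, Tal2 and Mab21l2 were higher with Otx2 alone than with Gbx2 alone, while Pax3 and Meis2 had overlapping intervals. Tal2, a factor of midbrain neurons, was at 78.5 CPM with Otx2 alone and 7.35 CPM with Gbx2 alone, and Mab21l2 was at 56.7 and 0.94 CPM. Pax3 was at 29.3 and 26.6 CPM and Meis2 at 42.2 and 35.6 CPM, and both were higher with neither gene, at 38.3 and 68.7 CPM. Of the forebrain list, Hesx1 (11.4 against 0.57 CPM) and Six3 (9.55 against 0.19 CPM) were low and were found with Otx2. The hindbrain factor Hoxb2 was at 1.03 CPM with Otx2 alone, 2.03 CPM with both, 22.2 CPM with Gbx2 alone and 32.0 CPM with neither. Irx3, the highest of the hindbrain list, had overlapping intervals with Otx2 alone and with Gbx2 alone, at 58.9 and 63.7 CPM, and was at 41.3 CPM with both and 32.2 CPM with neither. In the 193 cells with a UMI of Hoxa2, Hoxa3, Hoxb1, Hoxb2, Hoxb3 or Egr2 but of neither Otx2 nor Gbx2, En1 was at 2.68 CPM, Pax8 at 4.91 CPM, Pax5 at 0.89 CPM and Fgf8 at 1.34 CPM, while Wnt1 was at 87.7 CPM, Pax3 at 84.3 CPM and Meis2 at 162 CPM. Otx2 and Gbx2 chose these groups and Hox genes chose the last one, so only the other genes are results.

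**Figure D3:**
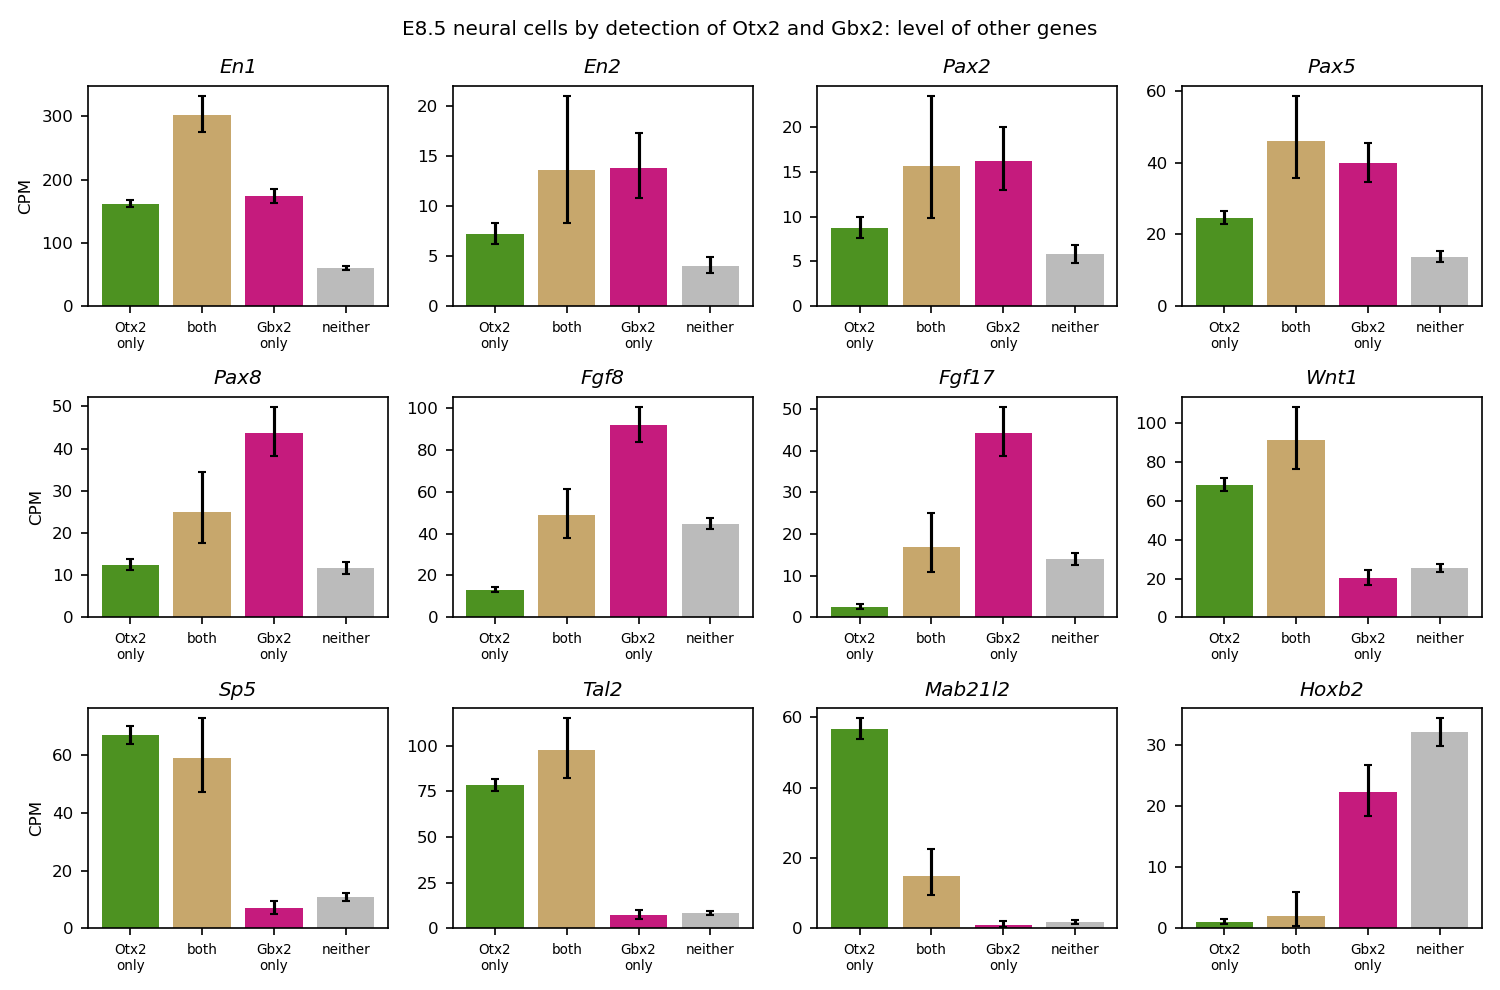
Level in CPM (bars from 0, with exact Poisson 95% intervals for counting error) of 12 genes in E8.5 neural cells with Otx2 only, both genes, Gbx2 only or neither. Fgf8, Fgf17 and Pax8 are highest with Gbx2 only (91.8, 44.3 and 43.7 CPM), Sp5 and Mab21l2 are highest with Otx2 only (67.0 and 56.7 CPM), and En1 is highest with both (302 CPM).

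The genes most like each member were named as the 5 with the highest ratio of CPM in neural cells with the member over those without it, among genes of at least 20 CPM in the former. For Otx2 the first 4 of these were Mab21l2 (35.1 times), Ehbp1 (15.4), Apcdd1 (14.5) and Otx1 (13.996). For En1 they were Fgf8 (22.4), Trh (12.3), Cldn10 (10.7), Fgf17 (9.94) and Pcp4l1 (5.34). Fgf8, Fgf17 and Cldn10, a claudin of tight junctions, were among the 5 for each of the other 5 members as well, with Fgf8 at 6.49 times for Pax5, 5.09 for Pax8, 3.82 for Pax2, 3.08 for En2 and 2.91 for Gbx2. Ratios fall as a member is missed in more cells, so their sizes are not compared between members.

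At E9.5, where the head was cut away, 5 of the 7 members were at low levels in neural cells, while Gbx2 and En2 were nearer to their E8.5 levels. In control neural cells Otx2 was at 1.36 CPM, En1 at 1.43 CPM, Pax5 at 0.31 CPM, Pax2 at 0.28 CPM, Pax8 at 0.91 CPM, En2 at 3.15 CPM and Gbx2 at 4.73 CPM. The E8.5 level was 73.0 times that of control E9.5 for Otx2, 86.6 times for En1, 70.8 times for Pax5, 30.2 times for Pax2 and 16.7 times for Pax8, but 2.10 times for En2 and 1.83 times for Gbx2. In neural cells without crest genes the fold of Otx2 was 384 (142 against 0.37 CPM, 11 UMIs at E9.5), and that of Pax2 was 49.5 on 7 UMIs, while the others were 108 for En1, 57.9 for Pax5, 20.6 for Pax8, 2.30 for En2 and 1.92 for Gbx2. The dissection, the kit version (2 at E8.5, 3 or 3.1 later) and the sequencer (NovaSeq at E8.5, HiSeq later) changed with the stage. These cannot be told apart from it. Hoxb2 moved the other way, from 16.2 CPM in E8.5 neural cells to 145 CPM in both E9.5 libraries.

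The E9.5 neural cells with En2 had more En1, Cnpy1 and Spry1 and less Hoxb2 than the others in both libraries. In the control, 74 cells held En2, and En1 was at 37.6 CPM in them against 0.51 CPM in the other neural cells. Cnpy1, a regulator of FGF signalling known from the midbrain-hindbrain border, was at 29.9 CPM against 0.26 CPM, and the FGF feedback inhibitor Spry1 was at 37.6 against 3.69 CPM. Hoxb2 was at 12.5 CPM in them against 148 CPM, and Otx2 was at 0 UMIs. In the null library 32 cells held En2, with En1 at 40.9 against 0.17 CPM, Cnpy1 at 21.3 against 0.11 CPM, Spry1 at 17.8 against 4.34 CPM and Hoxb2 at 33.8 against 146 CPM.

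Between the genotypes at E9.5 there was 1 library each, with kit 3.1 for the control and kit 3 for the null, so there is no test and kit and genotype cannot be told apart. Log2 ratios of null over control carry a pseudocount of 0.5 UMI and counting intervals only. En1 was at 1.43 CPM in the control and 0.59 CPM in the null (log2 ratio -1.25, -1.90 to -0.66), En2 at 3.15 and 1.06 CPM (-1.57, -2.03 to -1.14), and Pax5 at 0.31 and 0.07 CPM (-1.93, -4.09 to -0.46). Gbx2 (4.73 and 4.82 CPM, 0.03), Pax2 (0.28 and 0.32 CPM, 0.19) and Pax8 (0.91 and 0.78 CPM, -0.22) had intervals that span 0. Otx2 was at 1.36 CPM in the control and 2.02 CPM in the null (0.57, 0.14 to 1.01), with a log2 ratio of 1.39 (0.34 to 2.60, 24 against 11 UMIs) in cells without crest genes and 0.29 (-0.88 to 1.48) when thinned before the gate. With cells thinned to 5000 UMIs before the gate, the ratios of En2 (-0.41, -1.53 to 0.63) and En1 (-1.31, -3.23 to 0.16) had intervals that span 0, and Pax5 had 5 UMIs in the control and 0 in the null, with an upper limit of 0.21.

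At E10.5 the neural cells of 2 control and 2 null libraries were compared with edgeR's quasi-likelihood test on summed counts, adjusted by Benjamini-Hochberg over all 15767 genes tested. No member passed an adjusted p of 0.05, and neither did any other gene, so the background is 0% called. An unadjusted p under 0.05 was found for 849 of the 15767 genes, and DESeq2 called 54. Genes without any change would pass that unadjusted threshold at a rate of 0.05. Fold changes are null over control on the log2 scale with a standard error (SE). It was calculated as the size of the log2 fold change over the square root of the test's F statistic. In such sums, fewer cells of a type and less RNA per cell cannot be told apart. Overlap of the groups is stated here and below as a description only. The share of all genes whose groups do not overlap was not counted.

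Otx2 was at 10.4 and 27.3 CPM in control replicates 1 and 2, and at 14.2 and 10.2 CPM in null replicates 1 and 2. Control replicate 2 stood above the other 3 libraries, and the groups overlap (log2 fold change -0.64 ± 0.43 SE, adjusted p = 0.88). The estimate was 0.11 without control replicate 2. Gbx2 was at 7.87 and 4.19 CPM in the controls and 7.44 and 6.32 CPM in the nulls (0.12 ± 0.37, adjusted p = 0.97), again overlapping, and the estimate was 0.70 without control replicate 1 or -0.33 without control replicate 2. Of the Pax genes, Pax2 was at 1.88 and 1.49 CPM in the controls and at 1.12 and 3.75 CPM in the nulls, which lie on both sides of the controls (0.45 ± 0.56, adjusted p = 0.91).

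The remaining members were near the counting limit in neural cells. En1 had 5 and 0 UMIs in the controls and 26 and 33 UMIs in the nulls, at 0.10 and 0 against 0.28 and 0.39 CPM. The groups of En1 do not overlap, but it was not called (2.31 ± 0.88, unadjusted p = 0.032, adjusted p = 0.87), and in null replicate 1 a single cell held 22 of the 26 UMIs. Over the settings tried its fold change ran from 1.53 (doublets kept) to 7.47 (without control replicate 1, which leaves a control at 0 UMIs, so that the value is no bound), with adjusted p-values of 0.17 or more. Pax5 was at 0.10 and 0.41 CPM in the controls and 0.15 and 0.23 CPM in the nulls, and Pax8 at 0.32 and 0.23 CPM against 0.31 and 0.42 CPM, both overlapping (adjusted p = 0.97 and 0.94). En2, with 6, 0, 13 and 4 UMIs, was too low to be tested. Summed over all kept cells, where 10 of 17028 genes were called (0.0587%, all lower in the null), none of the 7 members was called, with adjusted p-values down to 0.13 over every setting tried.

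Read in order, the neural levels of Otx2 ran from E8.5 (99.2 CPM) through E10.5 (10.2 to 27.3 CPM) to E9.5 (1.36 and 2.02 CPM), and the controls and nulls of E10.5 overlap. En1 and Pax8 ran from E8.5 through E9.5 to E10.5, while the Pax5 levels of E9.5 and E10.5 overlap within 0.07 to 0.41 CPM. Pax2 was higher in all 4 libraries of E10.5 (1.12 to 3.75 CPM) than at E9.5 (0.28 and 0.32 CPM). For Gbx2 the libraries of all stages lie within 4.19 to 8.65 CPM. E8.5 was above every later library (interval 7.92 to 9.43 CPM), but its interval overlaps that of control E10.5 replicate 1 (7.13 to 8.67 CPM), and the E9.5 levels lie within the E10.5 range.

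The Otx2 UMIs of E10.5 came from a few cells with much Otx2. Cells with at least 1 Otx2 UMI numbered 75 and 96 in the controls and 223 and 159 in the nulls, which is 2.49% and 5.77% against 4.60% and 3.64% of neural cells. Those with 5 or more Otx2 UMIs numbered 41, 51, 112 and 61, and held 81.5% to 87.0% of all Otx2 UMIs of the neural cells. Their median depth was 16596 to 26291 UMIs, above the 11407 to 17507 UMIs of the neural cells without Otx2.

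All 6 genes of the roof plate and choroid plexus list were higher in the neural cells with Otx2 in 4 of 4 libraries, but Ttr lay in few of them. Ttr, the transthyretin secreted by the choroid plexus, was at 892 and 411 CPM in the Otx2 cells of the controls and 70.2 and 569 CPM in those of the nulls, against 0.35, 0.24, 0.30 and 5.28 CPM in the other neural cells. It was found in 9.33%, 10.4%, 6.28% and 17.0% of the Otx2 cells. Rspo1, a secreted WNT enhancer, was at 865, 526, 737 and 350 CPM against 41.9, 35.1, 58.8 and 40.4 CPM, in the same order of libraries. Lmx1a, a roof plate factor, was at 68.1, 110, 89.3 and 49.2 CPM against 2.84 to 7.60 CPM. Msx1, a dorsal homeobox factor, was at 560 to 684 CPM against 119 to 251 CPM. Much of the Otx2 signal lay in Sox2 cells that also held Sox10 or Twist1. They were 14.2%, 37.3%, 29.3% and 35.03% of the neural cells and held 253 of 547, 304 of 607, 827 of 1340 and 415 of 867 Otx2 UMIs. Otx2 was at 25.7, 27.5, 22.3 and 10.7 CPM in them, against 6.88, 27.2, 9.00 and 9.76 CPM in the neural cells without crest genes.

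Without the cells that held Sox10 or Twist1, a comparison added after the values were seen, Ttr changed most of the 4 genes described. In the 49, 56, 97 and 90 Otx2 cells that remained, Ttr was at 0.94 (1 UMI), 189, 48.9 and 139 CPM and was found in 2.04% to 14.4% of them, so its level in control replicate 1 rests on the cells with crest genes. Rspo1 was at 899, 561, 796 and 410 CPM against 35.9 to 57.1 CPM in the other neural cells without crest genes. Lmx1a was at 44.4 to 96.5 CPM against 2.21 to 8.03 CPM and Msx1 at 513 to 682 CPM against 180 to 324 CPM.

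Hoxb2 was lower with Otx2 in 4 of 4 libraries, at 75.6 to 116 CPM against 121 to 255 CPM. In the E8.5 neural cells with Otx2 and no Gbx2 it was at 1.03 CPM. The level that free RNA gives was not measured at either stage. Wnt1 was at 181 to 261 CPM against 61.6 to 127 CPM. Hes5, a Notch target of progenitors, was at 10.5 to 110 CPM against 211 to 544 CPM, and the neuronal tubulin Tubb3 was at 9.90 to 405 CPM against 430 to 990 CPM, with the highest value of the Otx2 cells of both genes in null replicate 2. Of the epithelial marker list, the keratins Krt18 (111 to 168 CPM) and Krt8 (48.7 to 69.0 CPM) were higher with Otx2 in 4 of 4 libraries, while Epcam was at 3.13 to 11.7 CPM with Otx2 and 3.14 to 4.34 CPM without, and Nkx2-1 and Oc90 were at 0 UMIs with Otx2. The 5 genes most like Otx2 over the 4 libraries were Gmnc (279 to 1273 times), Ttr, Ccno (102 to 421), Folr1 (31.1 to 43.9) and Rbm47 (29.8 to 53.7), with the cells that held crest genes included. Gmnc and Ccno are known for their part in forming multiciliated cells, and Folr1 carries folate across the choroid plexus.

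At E9.5 the neural cells with Otx2 had Rspo1 and Lmx1a but not Ttr. The 37 control and 53 null neural cells with Otx2 had Rspo1 at 620 and 563 CPM against 46.2 and 60.1 CPM, and Lmx1a at 36.2 and 52.4 CPM against 4.40 and 6.95 CPM. Ttr had 0 UMIs in them in both libraries. Of these cells, 29 of 37 and 42 of 53 also held Sox10 or Twist1. A few such cells also lay in the crest gate at E10.5, where 6, 16, 14 and 5 cells without Sox2 held 5 or more Otx2 UMIs.

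**Figure D4:**
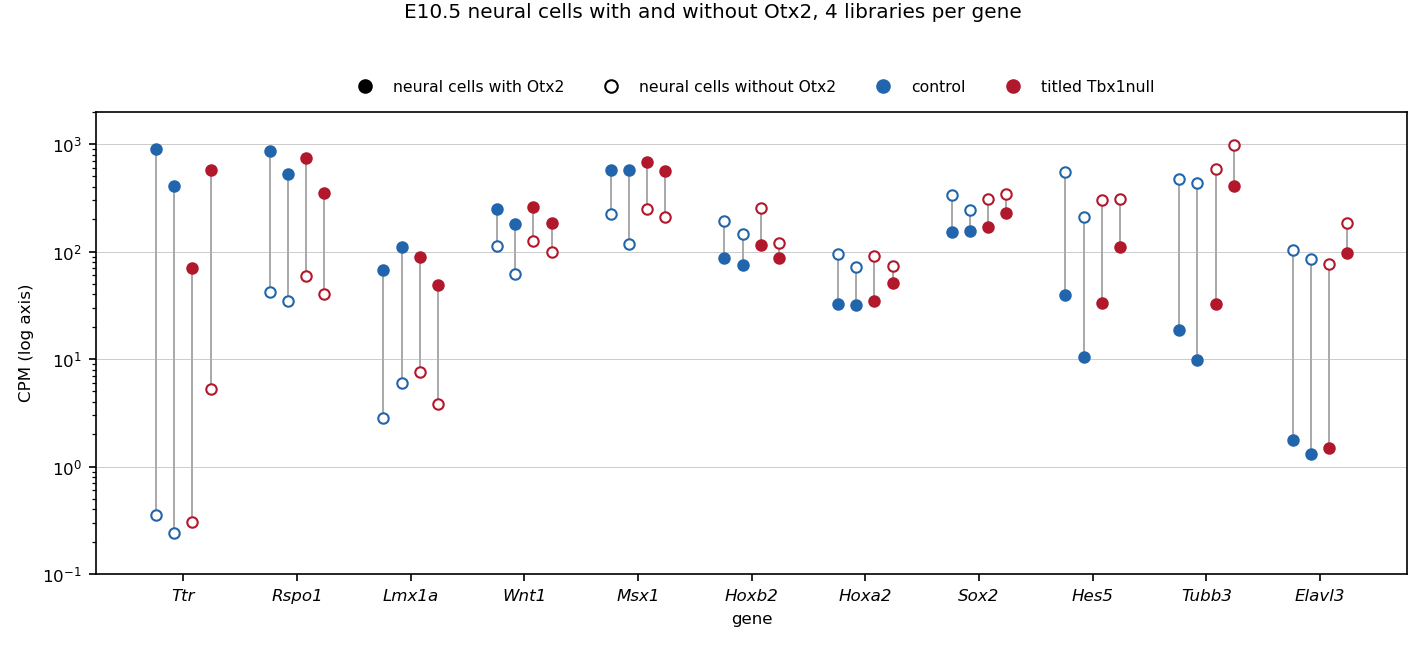
Level in CPM (log axis) of 11 genes in E10.5 neural cells with Otx2 (filled) and without (open), 1 line per library in the order control 1, control 2, null 1, null 2. Ttr, Rspo1, Lmx1a, Wnt1 and Msx1 are higher with Otx2 in all 4 libraries, and Hoxb2, Hoxa2, Sox2, Hes5, Tubb3 and Elavl3 are lower.

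In the E10.5 neurons, cells with Elavl3 and no Sox2, the UMIs of En1 and Pax8 lay mostly in the few cells with Pax2. Neurons numbered 640 and 777 in the controls and 580 and 1149 in the nulls, and Pax2 was in 23, 10, 15 and 34 of them, or 3.59%, 1.29%, 2.59% and 2.96%. The neurons with Pax2 were shallower than the others in 3 of 4 libraries and deeper in control replicate 2, at a median of 12158, 9215, 11512 and 13574 UMIs against 13056, 8779, 13372 and 15105 UMIs.

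En1 was at 65.6 and 237 CPM in the Pax2 neurons of the controls and at 169 and 141 CPM in those of the nulls, against 0.11, 0.74, 0 and 0.15 CPM in the other neurons. In all, 21 of 22, 23 of 29, 29 of 29 and 72 of 75 En1 UMIs of the neurons lay in cells with Pax2. In null replicate 1 all 29 were in a single cell. En1 was found in 17.4%, 30%, 6.67% and 17.6% of the Pax2 neurons, Pax8 in 34.8%, 20%, 13.3% and 44.1% and Pax5 in 17.4%, 10%, 13.3% and 29.4%, so most Pax2 neurons held no UMI of a given one of them and the levels rest on few cells. Pax8 was at 56.2, 82.6, 46.5 and 102 CPM against 0 to 0.56 CPM, which is 78.3%, 100%, 72.7% and 98.1% of its UMIs. Pax5 was at 25.0, 10.3, 23.3 and 41.1 CPM against 0.70 to 1.44 CPM, with 38.1%, 14.3%, 36.4% and 60% of its UMIs in the Pax2 neurons, and the value of control replicate 2 is 1 UMI. Gbx2 was at 21.9, 114, 5.81 and 72.5 CPM against 1.39 to 2.78 CPM, higher with Pax2 in 4 of 4 libraries, although the value of null replicate 1 is 1 UMI. Otx2 had 0 UMIs in the Pax2 neurons of all 4 libraries.

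Of the 10 genes of the interneuron list, 6 were higher in the Pax2 neurons in 4 of 4 libraries, with no test and on few UMIs. Slc32a1, the vesicular GABA transporter, was at 99.9, 31.0, 34.9 and 74.4 CPM against 0.23 to 0.89 CPM, and the GABA-synthesising enzyme Gad2 was at 68.7, 51.6, 29.1 and 82.3 CPM against 0.23 to 1.22 CPM. Gad1, another such enzyme, was at 23.3 to 34.3 CPM against 0.05 to 0.44 CPM. These 3 genes were named out of the list after their values were seen. In control replicate 2 they rest on 3, 5 and 3 UMIs of Slc32a1, Gad2 and Gad1 in 10 cells, and in null replicate 1 on 6, 5 and 4 UMIs in 15 cells. The LIM homeobox factors Lhx1 (314 to 991 CPM against 148 to 371 CPM) and Lhx5 (176 to 378 CPM against 78.0 to 118 CPM) were higher with Pax2 in 4 of 4 libraries. Tfap2b and Evx1 were each higher with Pax2 in 2 of the libraries and lower in the other 2, and Foxp2 was lower in 3 of 4. Of the remaining list genes, Foxd3 was at 50.0, 72.3, 11.6 and 33.3 CPM with Pax2 (16, 7, 2 and 17 UMIs) against 4.56 to 8.46 CPM, and Ptf1a had 0, 1, 0 and 7 UMIs in the Pax2 neurons. Hoxb2 was at 186 to 436 CPM in the Pax2 neurons, higher than in the others in 4 of 4 libraries. Pax2 chose these cells, so its own level is no result.

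**Figure D5:**
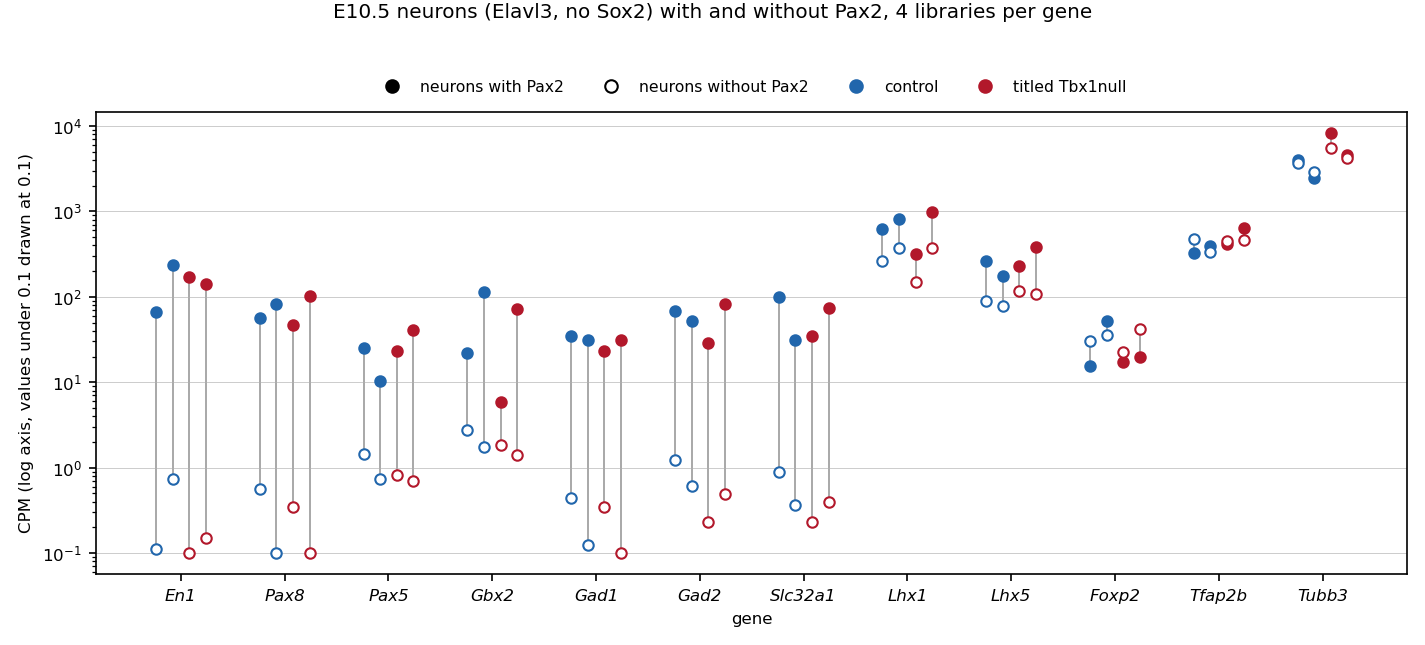
Level in CPM (log axis, values under 0.1 drawn at 0.1) of 12 genes in E10.5 neurons with Pax2 (filled) and without (open), 1 line per library in the order control 1, control 2, null 1, null 2. En1, Pax8, Pax5, Gbx2, Gad1, Gad2, Slc32a1, Lhx1 and Lhx5 are higher with Pax2 in all 4 libraries, and Foxp2, Tfap2b and Tubb3 are not.

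Between the genotypes, none of the 6 members tested in neurons was called by edgeR's quasi-likelihood test, beside 5 of 12793 genes called (0.0391%, all lower in the null: Lars2, Emx2, 3110099E03Rik, AY036118 and Gm42418). An unadjusted p under 0.05 was found for 1169 of the 12793 genes, and DESeq2 called 39. The neuron gate did not leave out cells with Sox10 or Twist1. Mesenchymal crest markers summed to 199 and 192 CPM in the neurons of the controls and to 379 and 410 CPM in those of the nulls. The part of such cells in the neuron values was not tested. Pax2 was at 10.4 and 3.29 CPM in the neurons of the controls and 7.61 and 10.9 CPM in those of the nulls (log2 fold change 0.34 ± 0.46). En1 was at 2.36 and 3.54 CPM against 3.30 and 3.64 CPM (0.15 ± 0.40), Pax8 at 2.47 and 0.98 CPM against 1.25 and 2.57 CPM (0.10 ± 0.57), Pax5 at 2.25 and 0.85 CPM against 1.25 and 1.70 CPM (-0.16 ± 0.56), and Gbx2 at 3.43 and 3.05 CPM against 1.93 and 3.16 CPM (-0.41 ± 0.41). The groups overlap for each of these 5 genes. Otx2 was at 0.11 and 0.12 CPM in the controls and 2.95 and 1.41 CPM in the nulls, which do not overlap (3.99 ± 0.84, unadjusted p = 0.0010, adjusted p = 0.41). Of its 26 and 29 UMIs in the nulls, 21 and 13 lay in 1 cell each. The adjusted p of Otx2 ran from 0.00060 (no filter on low counts) to 0.71 (without control replicate 2) over the settings tried, and it was 0.039 without null replicate 2.

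In the crest cells of E10.5, 3 members were high enough to be tested, and none of them was called. The fit was added after the crest levels of the members were seen, and 2 of 15396 genes were called in it (0.013%, 3110099E03Rik and Emx2, both lower in the null), with 2035 genes at an unadjusted p under 0.05. Gbx2 was at 3.27 and 2.96 CPM (207 and 316 UMIs) in the crest cells without Sox2 of the controls and at 0.60 and 0.65 CPM (40 and 18 UMIs) in those of the nulls, and the groups do not overlap. The log2 fold change of Gbx2 was -2.48 ± 0.33, with an unadjusted p of 0.00029 and an adjusted p of 0.13, so it was not called. Its adjusted p ran from 2.3e-05 (DESeq2) to 0.69 (without control replicate 2) over the settings tried, and the fold change stayed between -2.68 and -2.42. At E9.5 the crest levels of Gbx2 were 2.10 CPM in the control and 1.37 CPM in the null (log2 ratio -0.62, -0.90 to -0.34), with no test. Otx2 in the same cells was at 0.46 CPM in the control and 1.48 CPM in the null (1.70, 1.26 to 2.17), untested and with the kit differing between the libraries. At E10.5 Otx2 in crest cells was at 1.14 and 2.51 CPM in the controls and 2.56 and 3.23 CPM in the nulls. These groups do not overlap either, and Otx2 was not called in edgeR (0.48 ± 0.44, adjusted p = 0.65).

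The crest gates of the 2 genotypes differed in other cells as well. Neuron markers summed to 77.0 and 50.8 CPM in the control crest cells and to 173 and 1292 CPM in the null ones, markers of migrating crest and glia to 64.8 and 84.6 CPM against 276 and 262 CPM, and mesenchymal crest markers to 1191 and 1153 CPM against 1746 and 1447 CPM. The crest marker lists hold Sox10 and Twist1, which set this gate. In cells with Twist1 and neither Sox10 nor Sox2, Gbx2 was at 3.35 and 3.08 CPM in the controls and 0.53 and 0.57 CPM in the nulls (-2.68, adjusted p = 0.13 in edgeR). The part of the mix of cells in the Gbx2 values was not tested in either gate. Pax2 in crest cells was at 0.38 and 0.12 CPM in the controls and 0.24 and 2.12 CPM in the nulls (1.99 ± 1.04), passed only without null replicate 1 (adjusted p = 0.011), and was -0.060 without null replicate 2. The dissections are described in different words for the genotypes, and the part of this in the result was not tested. In neural cells Gbx2 showed no such gap (0.12 ± 0.37). The difference between the changes in crest and in neural cells came from a fit chosen after these values were seen. It was -2.61 ± 0.36 (unadjusted p = 0.00061, adjusted p = 0.38 in edgeR, where 0% of 16380 genes were called and 1097 had an unadjusted p under 0.05). The differences of En1 (-3.71 ± 1.14) and Pax5 (5.59 ± 2.58) were larger with larger errors, those of Otx2, Pax2 and Pax8 were 1.21, 1.42 and 1.67, and none was called. Pax5 had no UMI in the crest cells of both controls and of null replicate 1. En1 had no UMI in the neural cells of control replicate 2. The sizes for En1 and Pax5 are therefore not measured values.

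Genes most like Gbx2 were also listed in control crest cells. The 10 genes most like Gbx2 in the 2 control libraries of E10.5, by a rule added after the crest levels were seen, were in order 3110099E03Rik (5.61 to 6.12 times), Dlx4 (3.01 to 3.51), Dlx6os1, Kctd12, Pcdh19, Dclk1, Dlx3, Enpp2, Prr16 and Smoc1, and the last 8 lay between 2.46 and 3.30 times.

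Of the other listed genes, none was called in neural cells by this test, and neither was any of the 15767 genes tested. Among 97 genes of 15 lists, 81 were tested and 0 were called in either direction, so the count is not particular to the lists. The median log2 fold change was 0.39 for 6 tested of 8 isthmic signals, 0.39 for the 8 FGF target genes, 0.04 for the 6 midbrain factors, 0.07 for 3 tested of 7 forebrain factors, 0.25 for the 10 hindbrain factors, 0.06 for the 6 roof plate and choroid plexus genes and 0.39 for 9 tested of 10 interneuron factors, beside 0.03 over all genes tested. Of the marker lists, the medians were -0.07 for neural progenitors, 0.43 for neurons, 0.28 for migrating crest and glia, 0.55 for mesenchymal crest, -0.10 for endothelium, -0.24 for epithelium, -0.11 for cardiac and pharyngeal mesoderm and 4.02 for the 2 blood genes tested. In neurons, all cells and crest cells 1 list gene was called, Emx2 of the forebrain list, which was lower in the null each time. The neuron gate did not leave out cells with Sox10 or Twist1, and their part in its Emx2 call was not tested. Over all genes tested, 5 of 12793, 10 of 17028 and 2 of 15396 were called in these pools.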

How the data were processed

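Droplet single-cell RNA-seq (10x Genomics) was measured in 7 libraries of sorted EGFP-positive cells. The authors aligned reads to mm10 and deposited UMI counts per gene and cell from Cell Ranger 6.0.1, as filtered matrices. Barcodes under 1000 detected genes or above 10% mitochondrial UMIs were dropped, and the highest doublet scores were removed at 0.8% per 1000 barcodes. Of 5987 to 12047 barcodes per library 69.7% to 93.3% were kept. A list gene was named where it was among the 4 highest of its list.

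Levels are CPM with exact Poisson intervals, and a count of 0 allows up to 3 UMIs. Shares used cells thinned to 5000 UMIs. Sums per library were tested at E10.5 with edgeR 4.0.16 (TMM, filterByExpr, quasi-likelihood, adjusted p under 0.05), with DESeq2 1.42.0, other filters, gates, thinning, a replicate block and left-out libraries as alternatives. The script was tested on simulated data. The members and gene lists were chosen with earlier results of these data known. Crest fits were added after levels were seen. Otx2 and Gbx2 overlap genes on the other strand. Some genes that met the naming rule are not reported here.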

Additional observations from a re-analysis of the deposited data

Results flagged for a closer look

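At E8.5, 465 kept cells held no UMI of Sox2, Sox10 or Twist1 and enter no comparison, yet they carried the midbrain and isthmus genes. Otx2 was at 97.1 CPM (exact Poisson 95% interval 90.3 to 104) and En1 at 146 CPM (138 to 155) in them, above the 2.20 and 5.19 CPM of the crest cells without Sox2 and near the 99.2 and 124 CPM of the neural cells. Their median depth was 16921 UMIs, against 21082 UMIs in neural cells.

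En1 in neural cells had a log2 ratio of null over control of -1.25 at E9.5, while both null libraries of E10.5 (26 and 33 UMIs) lay above both controls (5 and 0 UMIs). The null pools held more neural cells, and a single cell held most of the 26 UMIs of null replicate 1. The direction at E10.5 therefore rests on few cells. The difference between the stages was not tested.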

How the results depend on the processing

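Counts of called genes at E10.5 moved with the settings. In neural cells they were 54 with DESeq2, 21 with the replicate block, 3 with cells thinned before the gate and 5 to 225 with a library left out, against 0. In neurons they were 39 with DESeq2, 221 with no filter on low counts, 227 with the replicate block and 11 to 150 with a library left out, against 5. In all cells they were 6 with DESeq2 size factors, 384 with DESeq2, 383 with no filter, 98 with the replicate block and 0 to 328 with a library left out, against 10. In crest cells they were 550 with DESeq2, 648 with no filter, 74 with the replicate block and 2 to 1786 with a library left out, against 2. The replicate numbers name pools and do not pair them by design: same-numbered libraries deviated together (correlation 0.14 to 0.31 over genes), but there are 2 pairs. The replicate block called 1 member, Otx2 in neurons (log2 fold change 4.05, adjusted p = 0.0157).

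Log2 fold changes of members kept their direction in 186 of 205 comparisons with an alternative. Leaving out a library gave, in neural cells, -1.17 to 0.11 for Otx2, -0.33 to 0.70 for Gbx2, -0.63 to 1.06 for Pax2 and -1.10 to 0.86 for Pax5, and -0.0075 for Gbx2 under the other cell filter. Pax8 in neural cells was at 0.31 in the main fit and ran from 0.034 to 1.91 over all settings tried. In neurons, leaving out a library gave -0.15 to 0.47 for En1, -0.25 to 1.37 for Pax2, -0.68 to 0.68 for Pax5 and -0.55 to 0.88 for Pax8. In all cells it gave -0.25 to 0.45 for Gbx2, -0.67 to 2.14 for En2, -0.093 to 2.24 for Pax2 and -0.21 to 1.29 for Pax5, and in crest cells -0.060 to 2.97 for Pax2. Gbx2 in crest cells passed the threshold with DESeq2 (-2.47), with no filter (-2.51) and without either null replicate, and was -2.55 to -2.42 with a library left out. Pax2 in crest cells passed without null replicate 1. The cause was not tested.

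The E8.5 share of neural cells with Otx2 was 21.9% at 3000 UMIs, 49.4% unthinned and 41.5% without crest genes, and that with En1 was 25.5%, 51.2% and 43.2%. Otx2 with En1 had a ratio of 0.97 without crest genes. En2 at E9.5 was at -0.41 when thinned before the gate. En2 in neural cells and neurons, and En1, En2, Pax5 and Pax8 in crest cells, were too low for the main fits. Changes smaller than the spread of 2 pools per genotype cannot be seen.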

Other observations

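At E10.5 the neural cells with Gbx2 (314 and 76 in the controls, 525 and 396 in the nulls) had more Sox1 and less Tubb3 than the others. Sox1 was at 75.5, 36.0, 78.8 and 52.6 CPM in them against 41.4, 14.3, 41.8 and 23.9 CPM in the other neural cells, and the neuronal Tubb3 was at 217 to 476 CPM against 408 to 1015 CPM, lower in 4 of 4 libraries. Hoxb2 was at 121 to 237 CPM with Gbx2 and 120 to 248 CPM without, with no common direction. The genes most like Gbx2 over the 4 libraries were Nppc (2.58 to 3.96 times), D130058E05Rik (2.15 to 3.67), Sox1 (1.82 to 2.53), Sox3 (1.75 to 2.999) and Rprm (1.75 to 2.06). D130058E05Rik overlaps the 5' end of Gbx2 on the other strand.

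The neural cells with Pax2 at E10.5 had as their most alike genes Fst (2.55 to 6.61 times), Fam81a (2.26 to 3.47), Wnt3a (2.25 to 5.12), Efnb3 (2.25 to 3.09) and Ptpn5 (2.18 to 4.299). In E8.5 crest cells without Sox2 the genes most like Gbx2, by a rule added after the values were seen, were in order Rep15 at 3.84 times, Msx3 at 3.39 times, Hoxa2 at 3.28 times, Hoxb3os at 3.25 times and Hoxb1 at 2.82 times over 104 cells with Gbx2.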
